A study of Homo sapiens with 31 samples.

Results

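The small ribosomal subunit of human cells is built from 1 ribosomal RNA and a fixed set of proteins, and the transcripts of these proteins were examined in NALM-6, a human B-cell precursor acute lymphoblastic leukemia (ALL) cell line. The genes were taken by symbol: the protein-coding genes named RPSA or RPS followed by a number (with A or X where present), and RPS4Y1, FAU and RACK1. The RPS6K kinases and RPS19BP1 do not belong to the subunit and were left out. This gave 34 of the 30667 genes in the count table, and all 34 held at least 1 UMI in every library and passed the filter on low counts. The cells carried lentiviral vectors that expressed a control shRNA (sh-CTRL) or an shRNA against XIAP (sh-XIAP) from the EF1a or the SFFV promoter, each within a miR30 cassette coupled to a red fluorescent marker. The study calls the knockdown (KD) by the SFFV vector strong and that by the EF1a vector moderate, and each has the sh-CTRL vector of its own promoter as the control. Cells sampled at days 10 and 13 after transduction gave 6 libraries of EF1a/sh-CTRL, 5 of moderate KD (EF1a/sh-XIAP), 4 of SFFV/sh-CTRL and 6 of strong KD (SFFV/sh-XIAP), and day 4 gave 3, 2, 3 and 2 libraries. All groups share the same cell line, a lentiviral vector and the miR30 cassette, and no group without a vector was analysed here.

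Ribosomal protein genes are among the most highly expressed genes of growing cells, and their products are made in matched amounts because each ribosome takes 1 copy of nearly every protein. Their mRNAs begin with a cytosine followed by a run of pyrimidines, the 5 prime terminal oligopyrimidine (TOP) motif, through which their translation is controlled by mTOR and LARP1. Because that control acts mainly on translation, mRNA levels need not follow the output of protein. Leukemic B-cell precursors divide fast and depend on ribosome production, and germline loss of 1 copy of several of these genes causes Diamond-Blackfan anaemia, a failure of red cell production.

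RNA was counted by a bulk-adjusted SCRB-seq protocol (prime-seq), which reads the 3 prime end of transcripts and counts unique molecular identifiers (UMIs). A UMI count does not grow with transcript length, so levels are given as CPM, UMIs scaled to the same library total. In bulk RNA a change in the cells present and a change in RNA per cell cannot be told apart. Libraries held 312852 to 1153668 UMIs, with a median of 603822. The 12 markers of B-cell precursors were present in every library and summed to 4904 to 5735 CPM. Of 6 T-cell, 7 myeloid and 7 erythroid markers, 3, 7 and 3 were in the table, with sums of 2.07 to 22.8, 3.65 to 38.4 and 0 to 5.29 CPM. XIAP itself had 2 to 14 UMIs a library and was not found lower. The log2 fold change was −0.26 (SE 0.406, adjusted p = 0.977 from limma) with strong KD and −0.17 (SE 0.373, adjusted p = 0.986 from limma) with moderate KD, so that at this depth the transcript count does not check the KD labels.

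The 34 genes together took 4.80% ± 0.0962 (SD, n = 31) of all UMIs, with a range of 4.63% to 5.10% between libraries. The 47 genes of the large subunit took 8.64% ± 0.384 (SD, n = 31). RPS18, a protein of the head of the subunit, was by far the most abundant, at 10281 ± 1281 CPM (SD, n = 31), and alone held 20.9% of the UMIs of the set. RPS6, the substrate of the S6 kinases, followed at 3513 ± 101 CPM (SD, n = 31). In all, 15 genes had a mean above 1000 CPM. Among the lowest were RPS15A at 173 ± 20.2 CPM and RPS10 at 167 ± 16.8 CPM (SD, n = 31 each). RPS4Y1, the copy on the Y chromosome, was at 1137 ± 63.8 CPM and its partner on the X chromosome, RPS4X, at 908 ± 42.7 CPM (SD, n = 31 each). Of the UMIs on RPS4X and its annotated pseudogenes, 41.2% lay on the pseudogenes, and RPS4Y1 had none in the table. The order of these levels is therefore uncertain.

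These levels depend on where a read was assigned. The genome holds many processed copies of the same mRNAs, and 369 annotated pseudogenes of these genes were in the table, with 1.77% to 2.08% of the UMIs of a library. The share of a family that lay on pseudogenes had a median of 19.0%. It was 79.2% for RPS26, 76.9% for RPS3A, 75.4% for RPS15A and 74.0% for RPSA. For RPS10, RPS7 and RPS2 it was 66.1%, 64.6% and 51.5%. The levels of all these genes are therefore uncertain. For 8 genes more than 50% of the family was on pseudogenes, and for 6 it was under 1%. RACK1 and RPS4Y1 had no annotated pseudogene in the table, and RPS18, with 5 of them, kept all but 10.8% of its family.

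The starts of the genes that the results turn on are shown so that the motif of this class of mRNA can be read in them, along with RPS7, which lacks it in this window. RefSeq promoter windows (GRCh38.p14, 250 bases before to 50 after the start) matched 27 of the 34 genes. Each line gives 10 bases before the start and 15 from it, 5 prime to 3 prime, with the unbroken pyrimidine run from the start in capitals.
RPS18 (chr6:33272065-33272089, plus strand): cacttccgctCTCTCTTCCacagga
RPS7 (chr2:3575250-3575274, plus strand): cgccctcctcCTCgcgctgtttccg
RPS3 (chr11:75399508-75399532, plus strand): cgagccacttCCTTTCCTTTCagcg
RACK1 (chr5:181243892-181243916, minus strand): gcttttctctCTCTCTTTCactgca
RPS12 (chr6:132814559-132814583, plus strand): cggatgaggcCTCTTTCCCTgccgc
RPS19 (chr19:41860245-41860269, plus strand): ccccgtcgttCCCTTTCCCCTggct
RPS27 (chr1:153990752-153990776, plus strand): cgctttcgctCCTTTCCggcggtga
The run was 11 bases in RPS3 and RPS19, 10 in RPS12, 9 in RPS18 and RACK1, and 7 in RPS27. RPS7 had a run of 3 in this window. A start at C with at least 4 further pyrimidines was present in 21 of the 27 genes (77.8%) and in 4.07% of all 35116 windows. The 6 without it were RPS4X, RPS7, RPS15, RPS26, RPS28 and RPS29. On either strand, CCGGAAG, a core that ETS factors bind, was in 9 of the 27 windows (33.3%, against 10.3% of all windows), and ATGGCGG, which resembles the YY1 site, was in 7 (25.9%, against 5.55%). RPS19 has a second window in the table that begins with no pyrimidine run, and a match shows only that these letters are in the window.

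Between libraries the levels differed little. For 28 of the 34 genes the highest library was less than 1.5 times the lowest, and the median coefficient of variation was 5.63%. To set the spread against the counting error, the SD of log2 CPM within the 12 groups of construct and day was divided by the SD that UMI counting alone would give. The median of this ratio was 1.17, and it was under 1.5 for 29 genes. It was highest for RPS18, at 11.2, followed by RPS7 at 2.69. The residual SD itself was among the largest for RPS18 (0.209, against a counting SD of 0.0186) and RPS26 (0.201, against 0.139). It was among the smallest for RPS6 (0.0422) and RPS19 (0.0424). RPS18 therefore varied far beyond its counting error, and RPS26, a gene of few UMIs, much less so.

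Over days 10 and 13 the summed share of each KD differed from its control by less than the SD between libraries. It was 4.75% ± 0.111 (SD, n = 6) with strong KD and 4.82% ± 0.104 (SD, n = 4) with SFFV/sh-CTRL. The share was 4.85% ± 0.0562 (SD, n = 5) with moderate KD and 4.80% ± 0.0614 (SD, n = 6) with EF1a/sh-CTRL. Over constructs the share was 4.80% ± 0.118 (SD, n = 10) at day 4, 4.77% ± 0.0915 (SD, n = 10) at day 10 and 4.83% ± 0.0763 (SD, n = 11) at day 13. At day 13 alone the 2 SFFV/sh-CTRL libraries (4.93% and 4.88%) lay above the 3 of strong KD (4.67% to 4.83%), where the totals were 351081 and 484714 UMIs against 630726 to 1063954 UMIs, and this was not tested apart. The highest share, 5.10%, belonged to EF1a/sh-CTRL day 4 replicate 2, a library of 372930 UMIs in which RPS18 made up 27.7% of the set. Without RPS18 the share lay between 3.65% and 3.90% in all 31 libraries.

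With strong KD limma-voom called none of the 34 genes at an adjusted p of at most 0.25 and 16 of 17683 tested genes (0.0905%). An unadjusted p under 0.05 was reached by 2 of the 34 and by 1053 of the 17683. The edgeR quasi-likelihood test called 0 of the 34 and 26 of all tested genes. DESeq2 called 0 of the 34 and 0 of all tested genes, so its count says nothing about the set. The median log2 fold change of the set was −0.014, beside −0.018 over all tested genes, and 9 genes were fitted above 0 and 25 below. For 25 of the 34 genes the 95% interval lay within 0.2 on the log2 scale of no difference, that is between a rise of 14.9% and a fall of 12.9%. The other 9, among them RPS7, RPS10, RPS15A, RPS18, RPS26, RPS27 and RPS29, had wider or displaced intervals, and larger differences were not excluded for them.

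RPS27, a zinc-binding protein of the body, was at 505, 557 and 576 CPM (lowest, median and highest of 6) with strong KD and at 471, 544, 481 and 489 CPM in the 4 SFFV/sh-CTRL libraries. The groups overlapped through 1 control library, and the log2 fold change was 0.15 (SE 0.0587, adjusted p = 0.744 from limma). RPS15A, a body protein shared with bacteria, was at 141, 161 and 175 CPM (lowest, median and highest of 6) with strong KD and at 160, 200, 165 and 188 CPM with SFFV/sh-CTRL. Its log2 fold change was −0.21 (SE 0.102, adjusted p = 0.814 from limma), with 75.4% of its family on pseudogenes. RPS18 was at 8654, 9410 and 12677 CPM (lowest, median and highest of 6) with strong KD and at 10209, 9615, 12894 and 11202 CPM with SFFV/sh-CTRL, and its log2 fold change was −0.23 (SE 0.222, adjusted p = 0.941 from limma). The edgeR test fitted −0.13 (adjusted p = 0.987). Its groups overlapped over most of their range. The median total was 708866.5 UMIs with strong KD and 464457 UMIs with SFFV/sh-CTRL, and the level of RPS18 had a slope of −0.29 per doubling of the total in limma. The part of depth in this difference was not tested.

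Moderate KD also gave no call among the 34 genes, and none among the 17683 tested genes (0%, 898 genes at an unadjusted p under 0.05). Here 6 of the 34 had an unadjusted p under 0.05, 3 higher and 3 lower, and the median log2 fold change was 0.0055, beside 0.0086 over all tested genes. RPS23, a protein of the decoding centre, was at 1539, 1286, 1523, 1593 and 1634 CPM with moderate KD and at 1380, 1435 and 1513 CPM (lowest, median and highest of 6) with EF1a/sh-CTRL. The lowest library of all 11 was a moderate KD library, so the groups overlapped, and the log2 fold change was 0.14 (SE 0.0351, adjusted p = 0.945 from limma). RPS23 passed when that library, EF1a/sh-XIAP day 10 replicate 2, was left out, also without SFFV/sh-CTRL day 10 replicate 1, and with DESeq2 size factors, and edgeR fitted 0.08. RPS18 was fitted at −0.19 (SE 0.0725, adjusted p = 0.974 from limma). Its mean CPM stood the other way, 10246 ± 909 CPM (SD, n = 5) against 9910 ± 754 CPM (SD, n = 6), and edgeR fitted 0.04. In this limma-voom fit 47.9% of the weight of RPS18 lay on 1 of 21 libraries, SFFV/sh-XIAP day 13 replicate 1, where equal weights would give 4.76%.

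**Figure D1:**
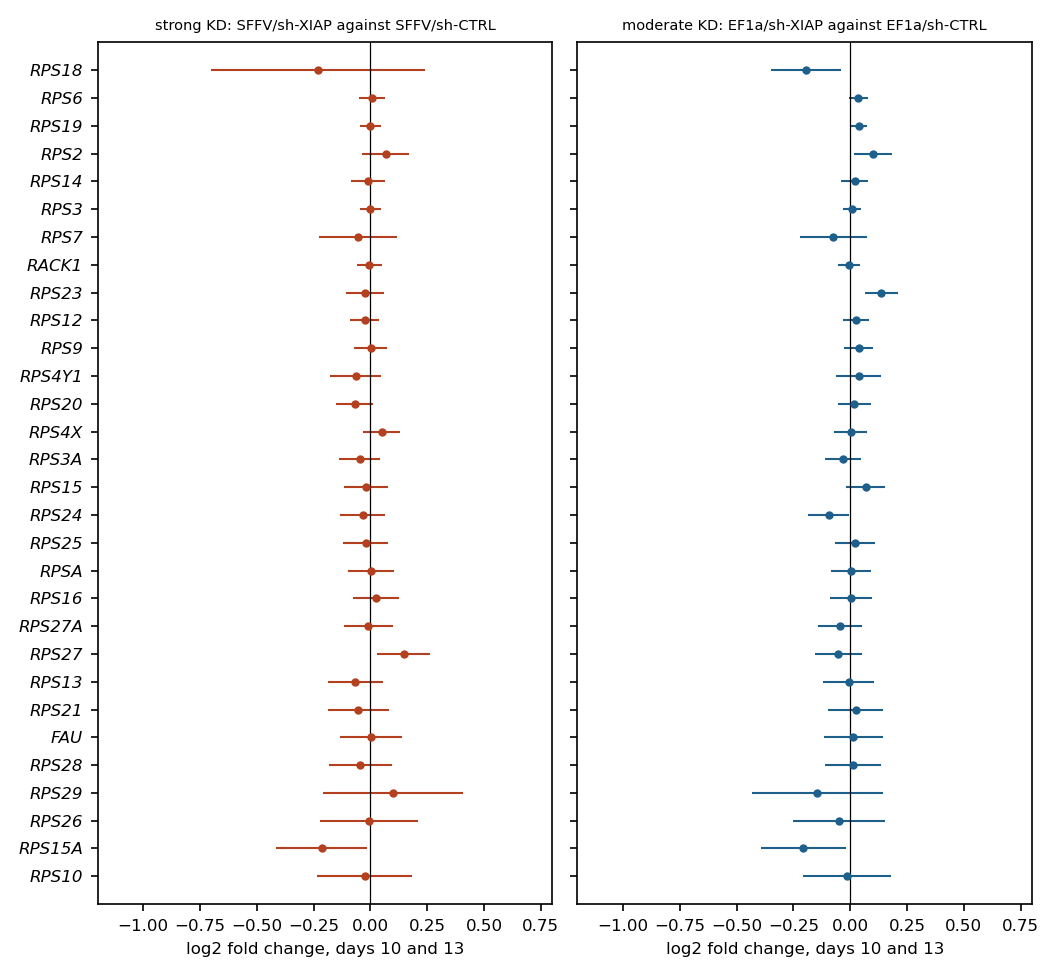
Log2 fold change of 30 of the 34 genes at days 10 and 13 with strong KD (left) and moderate KD (right), from limma-voom; bars are 95% intervals and genes are ordered by mean level. Most points lie within 0.1 of 0, and the wide bars belong to genes of low counts, such as RPS15A, and to RPS18.

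The difference between strong and moderate KD and the comparison of the promoters (SFFV/sh-CTRL against EF1a/sh-CTRL) called 0 of the 34 genes each, where 0.00566% and 0.0113% of all tested genes passed. At an unadjusted p under 0.05 there were 2 and 1 of the 34, beside 886 and 897 of 17683 tested genes. RPS27 had the smallest p between the promoters, with a log2 fold change of −0.17 (SE 0.0629, adjusted p = 0.964 from limma). Its SFFV/sh-CTRL libraries, which also served as controls of strong KD, ran from 471 to 544 CPM and those with EF1a/sh-CTRL from 532 to 598 CPM. Between strong and moderate KD, RPS27 differed by 0.20 (SE 0.0822, adjusted p = 0.985 from limma) and RPS23 by −0.16 (SE 0.0568, adjusted p = 0.963 from limma). RPS13 was the gene of smallest p among those higher with SFFV/sh-CTRL, at 0.09 (SE 0.0640, adjusted p = 0.972 from limma).

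Full separation of the libraries was also rare. No gene of the 34 had groups without overlap in CPM with strong or moderate KD, where 1.23% and 0.424% of all tested genes did. Between the promoters 1 of the 34 did, beside 0.973% of all tested genes. This was RPS29, a small zinc-binding protein of the head and a Diamond-Blackfan anaemia gene, named after its values were seen. Its SFFV/sh-CTRL libraries were at 308, 315, 299 and 318 CPM and its EF1a/sh-CTRL libraries at 323, 327 and 393 CPM (lowest, median and highest of 6), and the log2 fold change was −0.10 (SE 0.154, adjusted p = 0.981 from limma). In SFFV/sh-XIAP day 10 replicate 1 it reached 514 CPM, beside 300 and 320 CPM in the other libraries of that group.

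RACK1, FAU, RPS27A and RPSA were not called in either KD at days 10 and 13. RACK1, a signalling scaffold on the head, was at 1330, 1506 and 1570 CPM (lowest, median and highest of 6) with strong KD and at 1484, 1499, 1421 and 1535 CPM in the SFFV/sh-CTRL libraries, for a log2 fold change of −0.0039 (SE 0.0288, adjusted p = 0.995 from limma). With moderate KD it was at 1521, 1450, 1461, 1551 and 1590 CPM and with EF1a/sh-CTRL at 1518, 1545 and 1615 CPM (lowest, median and highest of 6). All these groups overlapped. FAU, which encodes a ubiquitin-like protein fused to eS30, was at 358, 417 and 454 CPM (lowest, median and highest of 6) with strong KD and at 389, 427, 356 and 450 CPM with SFFV/sh-CTRL, at a log2 fold change of 0.0022 (SE 0.0696). RPS27A, ubiquitin fused to eS31, was at 543, 604 and 666 CPM (lowest, median and highest of 6) with strong KD and at 594, 577, 664 and 621 CPM with SFFV/sh-CTRL, at −0.0092 (SE 0.0542). RPSA, also known as the laminin receptor precursor, was at 579, 677 and 725 CPM (lowest, median and highest of 6) with strong KD and at 702, 669, 681 and 604 CPM with SFFV/sh-CTRL, at 0.0026 (SE 0.0502). With moderate KD the log2 fold changes of FAU, RPS27A and RPSA were 0.01 (SE 0.0651), −0.05 (SE 0.0487) and 0.0038 (SE 0.0447). RPS4Y1 changed by −0.06 (SE 0.0539) with strong and 0.04 (SE 0.0482) with moderate KD.

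Groups of genes by position, conservation or disease are given by counts and medians, with no test of the difference between groups. With strong KD the 15 head genes had a median log2 fold change of −0.021 and the 19 of the body and platform one of −0.0087, and the 15 genes with a bacterial counterpart one of −0.0100. The 10 Diamond-Blackfan anaemia genes had a median of −0.030 with strong and −0.063 with moderate KD, 8 of the 10 below 0 in each, beside 25 and 14 of all 34 genes. An unadjusted p under 0.05 was reached by 2 of the 10 with strong and 3 of the 10 with moderate KD, beside 2 and 6 of the 34, and 0 of the 10 passed. Outside the set, 0 of 54 tested small-subunit biogenesis factors passed with strong KD (median 0.04) or moderate KD (median 0.03). Of 14 tested other TOP mRNAs, such as translation elongation factors, and of 16 regulators of TOP translation, such as MTOR and LARP1, 0 passed in either comparison. Of the 47 large-subunit genes 2 passed with strong KD, both lower: RPL36A and RPL34, with log2 fold changes of −0.54 (SE 0.125, adjusted p = 0.0836 from limma) and −0.23 (SE 0.0257, adjusted p = 0.0019 from limma). RPL34 was also called between the promoters, higher with SFFV/sh-CTRL than with EF1a/sh-CTRL, at 0.15 (SE 0.0094, adjusted p = 7.1e-07 from limma). The same SFFV/sh-CTRL libraries are the controls of strong KD. Between strong and moderate KD, RPL34 differed by −0.35 (SE 0.0440, adjusted p = 0.0101 from limma). The libraries of strong KD were deeper than those of SFFV/sh-CTRL, with median totals of 708866.5 and 464457 UMIs. RPL34 had a slope of −0.35 per doubling of the total (SE 0.0444, adjusted p = 2.6e-05 from limma). The part of depth in these calls was not tested.

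At day 4 none of the 34 genes passed in strong KD, moderate KD or between promoters, where 0.0218%, 0.0273% and 0.0164% of 18336 tested genes did. The unadjusted p was under 0.05 for 3, 3 and 4 of the 34, beside 1026, 888 and 865 of the 18336. RPS6 was the gene of smallest p among those higher with strong KD and among those lower with SFFV/sh-CTRL than with EF1a/sh-CTRL. Its libraries were at 3508 and 3687 CPM in strong KD, at 3489, 3324 and 3521 CPM in SFFV/sh-CTRL and at 3580, 3435 and 3677 CPM in EF1a/sh-CTRL. The groups overlapped, and the log2 fold changes were 0.05 (SE 0.0155, adjusted p = 0.711 from limma) and −0.05 (SE 0.0138, adjusted p = 0.607 from limma). RPS27A was lower by the smallest p with strong KD, at 595 and 520 CPM against 659, 600 and 598 CPM, a log2 fold change of −0.18 (SE 0.0665, adjusted p = 0.860 from limma). Its groups did not overlap, as was the case for 4 of the 34 genes and for 19.0% of all tested genes with these 2 and 3 libraries. With moderate KD, RPS7 was fitted at 0.10 (SE 0.0358, adjusted p = 0.933 from limma) and RPS6 at −0.04 (SE 0.0144, adjusted p = 0.950 from limma).

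From day 4 to day 10, 3 of the 34 genes passed in limma-voom, all lower, beside 47 of 17676 tested genes (0.266%). RPS19, mutated most often in Diamond-Blackfan anaemia, was at 2715 ± 81.6 CPM (SD, n = 10) at day 4 and 2626 ± 95.1 CPM (SD, n = 10) at day 10, a log2 fold change of −0.09 (SE 0.0190, adjusted p = 0.0881 from limma). RPS12, a head protein, was at 1383 ± 40.5 CPM (SD, n = 10) and 1323 ± 47.8 CPM (SD, n = 10), a log2 fold change of −0.08 (SE 0.0202, adjusted p = 0.0590 from limma). Ranges of the days overlapped for both, 2588 to 2853 against 2516 to 2778 CPM for RPS19 and 1293 to 1428 against 1247 to 1384 CPM for RPS12. The edgeR quasi-likelihood test, which called 0.277% of all tested genes, called neither (adjusted p = 0.735 and 0.708).

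The third call was RPS18, at a fitted log2 fold change of −0.27 (SE 0.0344, adjusted p = 7.6e-05 from limma). The days lay at 10368 ± 1522 CPM (SD, n = 10) and 9978 ± 1164 CPM (SD, n = 10), and edgeR fitted −0.07 (adjusted p = 0.996). With log2 total UMIs as a term the call was lost, at −0.15 (adjusted p = 0.474 from limma), whereas RPS12 and RPS19 still passed. Over all 13 alternatives, RPS12 and RPS19 were each lost in 7 and RPS18 in 6. In the limma-voom fit 84.3% of the weight of RPS18 fell on 1 of 31 libraries, EF1a/sh-CTRL day 4 replicate 3, where equal weights would be 3.23%. The largest such share among the other 33 genes was 12.8%, for RPS6. RPS18 was likewise the only one of the 34 to pass from day 10 to day 13, where 0.0339% of all tested genes did, at 0.16 (SE 0.0177, adjusted p = 0.0011 from limma). The CPM were 9978 ± 1164 (SD, n = 10) and 10477 ± 1215 (SD, n = 11), and edgeR, which called 0.0113%, fitted 0.09 (adjusted p = 0.9997). Leaving out SFFV/sh-XIAP day 10 replicate 3 or day 13 replicate 1 ended this call, and without the former the fitted change from day 4 to day 10 was 0.043 (adjusted p = 0.995 from limma). RPS4X was the gene of smallest p among those lower at day 13 than at day 10, at −0.05 (SE 0.0264, adjusted p = 0.987 from limma).

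From day 4 to day 13, 0 of the 34 genes passed, where 0.498% of all tested genes did. An unadjusted p under 0.05 was reached by 12 of the 34, 7 higher and 5 lower, beside 1155 of 17676 tested genes. RPS12 had the smallest p, at a log2 fold change of −0.06 (SE 0.0185, adjusted p = 0.311 from limma). RPS2, a protein at the mRNA entry site, was the gene of smallest p among those higher at day 10 than at day 4, at 2553 ± 83.2 CPM against 2434 ± 110 CPM (SD, n = 10 each).

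Depth moved with a few of these genes. With construct and day in the model, the slope of log2 level on log2 total UMIs was called for 3 of the 34 genes, beside 340 of 17676 tested genes (1.92%). It was −0.29 per doubling of the total for RPS18 (SE 0.0532, adjusted p = 0.0038 from limma) and −0.15 for RPS7 (SE 0.0287, adjusted p = 0.0069 from limma), and 0.04 for RPS3 (SE 0.0120, adjusted p = 0.0833 from limma). The edgeR quasi-likelihood test, which called 0.764% of all tested genes, gave −0.34 for RPS18 (adjusted p = 4.9e-06), −0.18 for RPS7 (adjusted p = 2.1e-08) and 0.05 for RPS3 (adjusted p = 0.799). In the limma-voom slope of RPS18, 90.7% of the weight lay on EF1a/sh-CTRL day 4 replicate 3. RPS18 and RPS7 passed under each of the 12 alternatives run and without each of the 31 libraries in turn. Their slopes were −0.47 to −0.24 and −0.21 to −0.11 under the alternatives. The alternative without the filter on low counts called 16206 of all genes, so passing there adds little. RPS3 was lost in 7 of the 12 alternatives and without 12 of the 31 libraries. In edgeR 30 of the 34 slopes lay within 0.1 of 0, and the median was 0.0060.

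In CPM, RPS18 lay between 9722 and 14118 in the 8 shallowest libraries (312852 to 482464 UMIs) and between 8654 and 9564 in the 8 deepest (787007 to 1153668 UMIs), without overlap. The ratio of the means was 1.26. RPS18, RPS7 and RPS3 are shown because their slopes were called in these same libraries, so their ranges illustrate that slope and add no support. For RPS7, a protein that also binds MDM2, the ranges were 1686 to 2023 and 1540 to 1737 CPM, a ratio of 1.12, and the 8 against 8 overlapped. The 3 highest libraries of RPS18 were EF1a/sh-CTRL day 4 replicate 2 at 14118 CPM, SFFV/sh-CTRL day 13 replicate 1 at 12894 CPM and SFFV/sh-XIAP day 10 replicate 2 at 12677 CPM, with totals of 372930, 351081 and 312852 UMIs. These were also the 3 highest of RPS7, at 1939, 1965 and 2023 CPM, and the 3 lowest of RPS3, at 1831, 1829 and 1848 CPM. EF1a/sh-XIAP day 10 replicate 2, with 315055 UMIs, did not share this, at 10433, 1695 and 2088 CPM.

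Within groups the order held in most cases. The slopes were fitted with construct and day as terms, so these counts restate them for the genes picked by slope. In some groups the depths barely differed, as with 748333 and 755572 UMIs in SFFV/sh-XIAP day 4. The shallowest library of a group of construct and day exceeded the deepest for RPS18 in 11 of 12 groups and for RPS7 in 10 of 12, and for RPS3 in 2 of 12. The pseudogenes of RPS18 and RPS7 were also higher in the 8 shallowest libraries, by ratios of 1.19 and 1.21. RACK1 ran the other way, at 1448 ± 83.6 CPM (SD, n = 8) in the shallow and 1522 ± 50.1 CPM (SD, n = 8) in the deep libraries, with a slope of 0.04 that did not pass (SE 0.0153, adjusted p = 0.258 from limma). RPS27 had the steepest positive slope, 0.08 (SE 0.0317, adjusted p = 0.335 from limma), followed by RPS26 at 0.06 (SE 0.0598) and RPS2 at 0.05 (SE 0.0210), neither of which passed. Thinning the UMIs of each library to the smallest total left the slopes of RPS18 and RPS7 past the threshold, and the part of library preparation or RNA quality was not tested.

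Across the 34 genes the edgeR slopes bore little relation to the other properties. Spearman's rho was 0.233 with the transcript length, −0.026 with the mean CPM and −0.0047 with the pseudogene share (34 genes each, no p is given because genes share libraries). Of the 47 large-subunit genes 11 had a called slope, 6 positive and 5 negative. RPL34 was among those with a negative slope.

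The measured co-variation of the 34 genes as a set was low. After removal of the 12 group means, Pearson's r of log2 CPM over 31 libraries averaged 0.0433 over the 561 pairs, beside 0.0291 over the 1081 pairs of large-subunit genes, 0.0371 between the sets and 0.0078 over all pairs of tested genes. The range was −0.706 to 0.900, with 16 pairs above 0.5 and 7 below −0.5. These values describe libraries that share depth and composition, and no p is given. With a median ratio of residual to counting SD of 1.17, counting error holds most r near 0. A low mean r therefore cannot show that the genes do not vary together. RPS18 and RPS7 formed the tightest pair at 0.900, and 0.654 with log2 total UMIs as a term. RPS7 also went with RPS20 (0.662). Opposed to RPS18 were RPS3 (−0.633), RACK1 (−0.610) and RPS16 (−0.573), which were at −0.242, −0.116 and −0.179 with log2 total UMIs as a term. Outside the set, RPL34 was very close to RPS18 (r = 0.987) and RPS7 (r = 0.926). The r of RPS15 with RPS23 moved little with the total as a term (0.633 and 0.613).

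**Figure D2:**
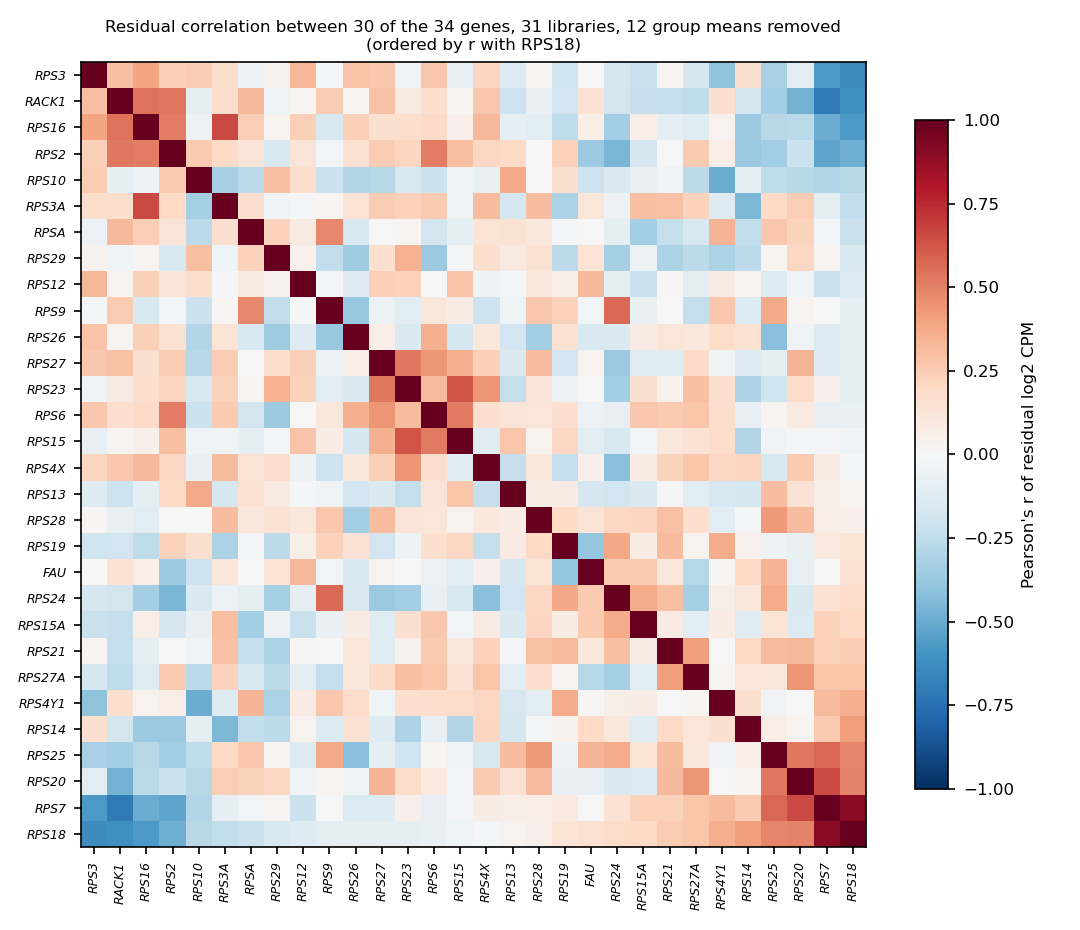
Pearson's r of residual log2 CPM between 30 of the 34 genes over 31 libraries, with the 12 group means removed; red is positive and blue negative, and genes are ordered by their r with RPS18. The block of RPS18 and RPS7 (0.900) stands against RPS3, RACK1, RPS16 and RPS2 at the other end, and most of the map is pale.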

How the data were processed

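The values are UMI counts per gene and sample, deposited by the authors in a single table without normalization. The labels name STAR 2.6.0a and human and mouse builds; which counter and annotation were used is not given in the sources read here. All 31 samples were mapped by their descriptions to construct, day and replicate, and none was left out. The study's methods state that outliers in a principal component analysis were excluded, without naming them; whether any is among the 31 samples is not known, and day 4 is not mentioned there. The sample labels state growth in vitro, whereas the design text of the series speaks of cells from mouse bone marrow; the labels were followed.

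Gene types and positions came from GENCODE 29 (GRCh38), which held 29928 of the 30667 gene ids. Genes above 1 CPM in at least 1/3 of the fitted samples were tested by limma-voom (limma 3.58.1, edgeR 4.0.16, R 4.3.3) with TMM factors, construct and day as terms, robust moderation and Benjamini-Hochberg adjustment over all tested genes, at an adjusted p of at most 0.25. Days 10 and 13, day 4 and all days were fitted apart. Alternatives included edgeR's quasi-likelihood test and DESeq2 1.42.0. Log2 CPM used a prior count of 2. P-values measure the spread between these samples, which may be technical, since the labels do not say that replicates are separate cultures.

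The genes named in the text are RACK1, FAU, RPSA and RPS27A, the 3 highest and 3 lowest by level, those of smallest p in each comparison and direction, and the extremes of residual SD and slope. RPS29, RPL34, the pairs of the correlations, the promoter motifs and the weights were chosen after the values were seen. The genes, lists and comparisons were all chosen with earlier results of these data known. Values of some genes that the naming rule picks are not reported here; they entered the fits, counts and sums.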

Additional observations from a re-analysis of the deposited data

Results flagged for a closer look

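In each of the 4 constructs at days 10 and 13, the library at either end was compared with the range of its group by Dixon's criterion at the 95% level, for 19 measures. Of 76 groups, 1 held such a library, and chance flags about 1 in 20. RPS2 reached 2775 CPM in EF1a/sh-XIAP day 13 replicate 3, a library of 1048088 UMIs, with the next of 5 libraries at 2585 CPM. The cause was not tested.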

How the results depend on the processing

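With strong KD and for the difference between strong and moderate KD, 0 of the 34 genes passed under all 13 alternatives and without each of 21 libraries. For strong KD the alternatives called from 0 (DESeq2 and thinned counts) to 26 (edgeR) genes in all. For the difference they called 0 to 2, so a count of 0 among the 34 says little there. Other counts moved, and each is given here with the genes called in all. The edgeR quasi-likelihood test, DESeq2 and thinned counts each gave 0 from day 10 to day 13, of 2, 0 and 4. They each gave 0 from day 4 to day 10, of 49, 42 and 18. DESeq2 also gave 1 from day 4 to day 13 and 5 for the slope, of 75 and 101. An adjusted p of at most 0.05 left 1 of 12 from day 4 to day 10. Without robust moderation there was 1 of 9 with moderate KD at day 4 and 3 of 91 from day 4 to day 13. Limma-trend gave 0 of 1 from day 10 to day 13 and 1 of 48 from day 4 to day 10. DESeq2 size factors gave 1 of 1 with moderate KD and 0 of 2 from day 10 to day 13. At day 4 they gave 1 of 6 with strong KD and 1 of 4 between promoters. They gave 1 of 54 from day 4 to day 10, 2 of 110 from day 4 to day 13 and 6 of 375 for the slope. Without TMM the last 3 were 1 of 52, 1 of 80 and 6 of 460. Without the filter on low counts there were 2 of 3 with moderate KD and 4 of 48 from day 10 to day 13. There were 12 of 8011 from day 4 to day 10, 3 of 95 from day 4 to day 13 and 17 of 16206 for the slope. The log2 total as a term gave 1 of 10 between promoters at day 4 and 1 of 99 from day 4 to day 13. From day 4 to day 10 it called 65 genes, with RPS12, RPS19 and RPS25 in place of RPS12, RPS19 and RPS18. At day 4, pseudogene counts summed to the parent gave 2 of 9 with moderate KD and 4 of 7 between promoters. From day 4 to day 13 they gave 2 of 90. The summing raised the median summed share from 4.80% to 6.68%. The mean pairwise r stayed between 0.0253 and 0.0557.

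The mean correlation of residuals was −0.0004 over 66 pairs of samples of the same replicate number and 0.0002 over 126 others. Counting error can hold such values near 0, so this check does not exclude a pairing. A replicate block gave 0 from day 10 to day 13, 1 from day 4 to day 13 and 5 for the slope. The last 2 were of 92 and 250 genes called in all.

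Leaving out 1 library gave 0 to 1 with moderate KD (RPS23), between promoters (RPS19) and from day 10 to day 13 (RPS18), 0 to 2 with moderate KD and between promoters at day 4, 1 to 4 from day 4 to day 10, 0 to 3 from day 4 to day 13 and 2 to 6 for the slope. The log2 fold change of RPS18 from day 4 to day 10 ranged from −0.28 to 0.043, the latter without SFFV/sh-XIAP day 10 replicate 3. The slope count was 6 without EF1a/sh-CTRL day 13 replicate 1 and 5 without SFFV/sh-CTRL day 4 replicate 2 or SFFV/sh-XIAP day 13 replicate 1; from day 4 to day 10 it was 1 without EF1a/sh-CTRL day 10 replicate 1 or SFFV/sh-XIAP day 10 replicate 3; from day 4 to day 13 it changed without 26 of 31 libraries. The causes were not tested. Genes of few UMIs, such as RPS15A and RPS10, limit what the depth can show. Their counts also depend on read assignment, with 75.4% and 66.1% of their families on pseudogenes.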
